A study of Mus musculus with 2 samples.

Results

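The genes examined here are 9 chemokine receptors of leukocytes, Ccr2, Ccr6, Ccr7, Ccr8, Ccr9, Cxcr3, Cxcr4, Cxcr5 and Cxcr6, in cells sorted as lymph node stroma. They were chosen by name, as every non-control spot of the array files whose gene name is 1 of the 9, which gave 13 probes. The arrays hold 37008 gene names in all. The sort took lymph node cells lacking CD45, which is the product of Ptprc and marks leukocytes, from female mice, given in the labels as C57BL/6, and their RNA was hybridized to 1 one-color Agilent array per group. The normal group had no tumor. The tumor-draining group carried 4T1, a mouse mammary carcinoma line, placed subcutaneously in the mammary gland, and its nodes were taken 2 weeks later. 4T1 is known as a BALB/c line, so host and tumor differ in strain if the label holds. The age of the mice and the number of mice pooled in each sample are not given in the sources used here. With 1 array in each group there is no replicate check and no p-value, and a gene is called higher or lower by size alone, at 2-fold or more.

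Chemokine receptors are G protein-coupled receptors that turn a gradient of secreted chemokine into directed cell movement. In lymph nodes, reticular and endothelial stroma makes most of the guiding chemokines, while lymphocytes, dendritic cells and monocytes carry the receptors. Ccr7 and Cxcr5 are known for sorting T cells and B cells into their own zones, and the pattern of receptors on a leukocyte is a common label of its subset and history.

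The arrays read these genes through probes of 60 bases, and stretches of some receptors are shown here. Among them are receptors toward the ends of the range of differences, and Ccr7 and Cxcr4, whose probes differed. The Ccr9 probes differed as well and are not shown. Positions are on mm9, per the file headers, and the strand is that of the probe. For Cxcr4, Ccr8 and 4 other probes the following sequences were on the array, given 5′ to 3′, with a polyadenylation signal (AATAAA) or a closing stop triplet (TAA) in capitals where the letters hold it. Probes other than the full ones are shown by their last 30 bases.
Cxcr3, chrX:98926920-98926979, minus strand, last 30 bases: tctcagtatctcaatatttgcccaatttta
Cxcr5, chr9:44320071-44320130, minus strand, last 30 bases: tatcctcattgcagaaccgtgaagacacct
Ccr7, brighter probe, chr11:99005551-99005610, minus strand, last 30 bases: ttttgattcatatatcttttatgaagaaac
Ccr7, dimmer probe, chr11:99005513-99005538, minus strand, last 30 bases: caagacagagcttatctccacacttagcaa
Ccr8, chr9:120003941-120004000, plus strand, all 60 bases: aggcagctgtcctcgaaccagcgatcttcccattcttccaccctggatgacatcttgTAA
Cxcr4, brighter probe, chr1:130485079-130485138, minus strand, last 30 bases: gtaaattgAATAAAgctagccgtgatcctc
Cxcr4, dimmer probe, chr1:130486114-130486173, minus strand, all 60 bases: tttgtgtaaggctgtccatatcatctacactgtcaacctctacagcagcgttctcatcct
The files give a position of 26 bases for the dimmer Ccr7 probe and of 60 bases for the other 12 probes. They do not state whether a probe lies in coding sequence or in a UTR. The genes lie on chromosomes 1, 9, 11, 17 and X, and 5 of them, Ccr2, Ccr8, Ccr9, Cxcr5 and Cxcr6, on chromosome 9.

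Both arrays shared 1 scan. The sort did not leave a sample free of leukocyte RNA. Ptprc, the gene of the antigen used to exclude leukocytes, was above background on both arrays and 4.91-fold higher with the tumor. Out of 24677 genes measured above background at least once, 2826 were at least 2-fold higher on the tumor-draining array (11.5%) and 4073 at least 2-fold lower (16.5%), with a median log2 difference of 0.10. Scaling to 6 spike-in probes, whose median difference was -0.82, raised every difference by that size and made 83.9% of all calls higher, against 41.0%. In that scaling 46.0% of genes passed 2-fold upward and 8.83% downward, and with normexp background correction, which adds an offset to every signal, 5.64% and 9.92%. In RNA from a mixed sample, fewer cells of a type and less RNA per cell cannot be told apart.

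All 9 receptors were at least 2-fold higher on the tumor-draining array, against the 11.5% of all genes above, and none was lower, against 16.5%. Their median log2 difference was 2.30, or 4.94-fold, from 1.28 for Cxcr4 to 3.25 for Cxcr3. All 13 probes were marked well above background on both arrays, none was saturated or marked as an outlier, and all 13 were at least 2-fold higher. Every probe was printed as 1 spot, so the error beside each signal below is the one that the scanner software assigns to that spot. It does not cover differences between mice or sorts.

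**Figure D1:**
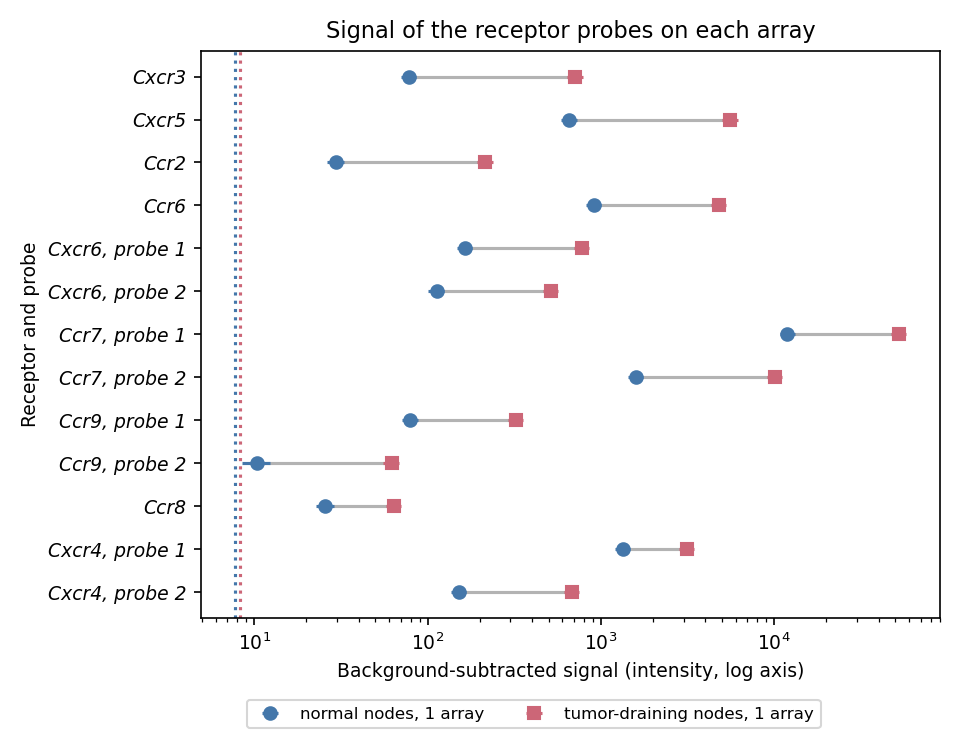
Background-subtracted signal (x axis, intensity on a log scale) of the 13 receptor probes (y axis) on the normal array (circles) and the tumor-draining array (squares), each 1 array, with the software's error as bars. Dotted lines mark the lowest signal of a probe well above background on each array, 7.72 on the normal and 8.27 on the tumor-draining array, and every square lies to the right of its circle.

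Among the receptors that position lymphocytes within lymphoid organs, Ccr7, which leads naive T cells and mature dendritic cells toward the T zone, read 11915 ± 1191 in normal nodes and 52409 ± 5241 on the tumor-draining array. That is 4.59-fold higher after scaling. Its dimmer probe went from 1594 ± 159 to 10046 ± 1005, or 6.58-fold. Both probes were higher on the tumor-draining array, the dimmer one by more.

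Cxcr5, the receptor that takes B cells and follicular helper T cells into follicles, read 658 ± 65.8 in normal nodes and 5584 ± 558 on the tumor-draining array, which is 8.86-fold higher. It had the second of the differences in order of size. Of all genes measured, 109 had a larger one, or 0.442%.

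Cxcr4, the receptor for the retention signal Cxcl12 and a gene that many leukocytes and some endothelial cells express, differed least on its brighter probe. With the mean over probes (1.75 against 1.38 on the log2 scale) and with normexp (1.21 against 0.59), Ccr8 differed less. The brighter Cxcr4 probe read 1343 ± 134 in normal nodes and 3127 ± 313 in tumor-draining nodes, 2.43-fold higher. Its dimmer probe read 152 ± 15.3 and 677 ± 67.7, 4.65-fold higher. The 2 probes start 1035 bases apart on chromosome 1, and the brighter one holds the AATAAA shown above. Which of them follows the gene's transcripts more closely was not tested.

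Ccr6, which B cells and interleukin-17-producing T cells carry, went from 910 ± 91.0 on the normal array to 4815 ± 482 on the tumor-draining array, or 5.52-fold higher. Its probe lies on chromosome 17 at 8449933 to 8449992. Ccr9, the gut-homing receptor, read 79.5 ± 8.10 and 324 ± 32.5 on its brighter probe, 4.26-fold higher. A second Ccr9 probe, made to a sequence accession that the RefSeq table does not hold and lying 9399 bases away, read 10.4 ± 1.88 and 62.0 ± 6.42. On the normal array that reading was 1.35 times the lowest signal called well above background, so its 6.21-fold difference rests on a signal close to the detection limit.

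Cxcr3, the receptor of interferon-induced chemokines on activated T cells and natural killer cells, had signals of 78.1 ± 8.02 in normal nodes and 712 ± 71.2 in tumor-draining nodes. Its 9.51-fold difference exceeded that of each other receptor. At least 94 of all genes measured (0.381%) had a larger one, with bounds counted as for Cxcr5. With normexp the log2 difference was 2.46 in place of 3.25, below the 3.06 of Cxcr5.

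Cxcr6, which resident and activated T cells carry, read 164 ± 16.5 in normal nodes and 775 ± 77.5 on the tumor-draining array. Its second probe read 113 ± 11.4 and 515 ± 51.5. The 4.94-fold and 4.78-fold differences were the closest between 2 probes of a receptor. The probes lie within 1 stretch of chromosome 9, 114 bases apart, at 123720605 to 123720664 and 123720719 to 123720778.

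Ccr8, known from regulatory and type 2 helper T cells, was among the dim probes. It read 25.7 ± 3.01 in normal nodes and 64.0 ± 6.61 in tumor-draining nodes, 2.59-fold higher. With normexp background correction its log2 difference was 0.59 in place of 1.38, which is under 2-fold, so this call depends on how the background is treated.

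Ccr2, the receptor that brings inflammatory monocytes out of bone marrow and that some T cells and natural killer cells carry, had signals of 29.5 ± 3.39 in normal nodes and 215 ± 21.6 in tumor-draining nodes. The 7.61-fold difference was the third in size, but normexp gave a log2 difference of 1.69 in place of 2.93, which was the sixth. Its probe lies on chromosome 9 at 124022948 to 124023007.

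In order of size the log2 differences were those of Cxcr3, Cxcr5, Ccr2, Ccr6, Cxcr6, Ccr7, Ccr9, Ccr8 and Cxcr4. The software's error of a probe's difference was 0.20 to 0.30 on the log2 scale. Of the 8 steps between neighbours in that order, 6 were smaller than the combined error of the pair, which was 0.29 to 0.31. The steps that exceeded it were that from Ccr2 to Ccr6 (0.46) and that from Ccr9 to Ccr8 (0.71). The first of them turned with normexp, which gave 1.69 for Ccr2 and 2.39 for Ccr6. By this error neighbours such as Cxcr3 and Cxcr5, or Ccr8 and Cxcr4, do not differ beyond it. The error is assigned by the software to single spots and is not a spread measured between repeated spots.

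The spread between spots of 1 probe is given as an SD and that between probes of 1 gene as a gap, so the 2 are unlike measures. Over 298 probes printed repeatedly, 274 of them with mean signals over 3000, the log2 difference had a median SD of 0.050. It was 0.11 over the 9 with mean signals of 30 to 300 and 0.27 over the 2 below 30, the ranges that hold the dimmer receptors. For the 4 receptors with 2 probes the probes differed by 0.048 (Cxcr6), 0.52 (Ccr7), 0.54 (Ccr9) and 0.93 (Cxcr4). Over 4712 genes with 2 probes above background on both arrays the median gap was 0.30 and the 90th percentile 1.09. A pattern over 2 arrays is a single difference, so no gene can be named as most like a receptor. The number of other genes within 0.1 of a receptor's log2 difference, bounds included, ran from 30 for Cxcr3 to 532 for Cxcr4.

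**Figure D2:**
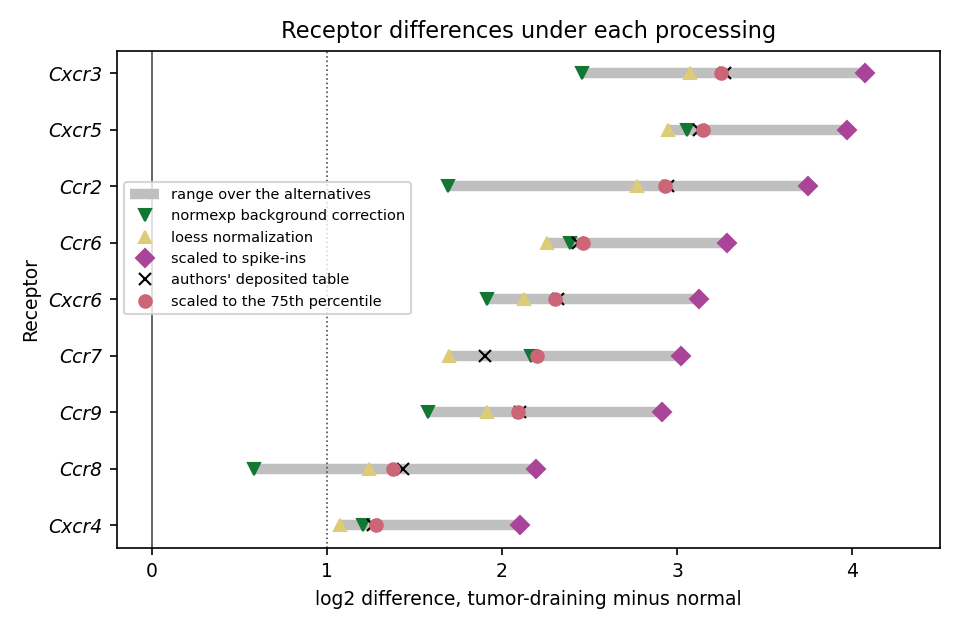
log2 difference, tumor-draining minus normal (x axis), of the 9 receptors (y axis) with the signals scaled to the 75th percentile (circles), under 4 of the other ways of processing (other symbols) and as the range over the alternatives that could be run (bars). The solid line marks no difference and the dotted line 2-fold. Every bar lies above 0, and Ccr8 with normexp (0.59) is the value under 2-fold.

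The ligands of these receptors went the other way on most probes. Of 15 ligand genes, each measured above background in both groups, 10 were at least 2-fold lower with the tumor and 1 higher. Of all genes 16.5% were lower and 11.5% higher. The median log2 difference of the ligands was -1.77. Scaled to the spike-ins, 7 were lower and 1 higher, beside the 8.83% and 46.0% of all genes. The ligand lists and the receptors share the same 2 arrays, and fibroblastic, blood endothelial and lymphatic endothelial markers were lower on the tumor-draining array too, as given below. Their part in the ligand values was not tested.

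For the homeostatic pairs, Cxcl12, the ligand of Cxcr4, read 20423 in normal nodes and 2449 on the tumor-draining array, 7.99-fold lower beside a receptor that was 2.43-fold higher. Cxcl13, the follicular ligand of Cxcr5, was 3.42-fold lower, from 3036 to 852. Ccl19 and Ccl21a, the Ccr7 ligands of the T zone, were 9.20-fold and 4.96-fold lower. Ccl25, the Ccr9 ligand, had a log2 difference of -0.31 on its brightest probe and 0.70 on another probe above background, so its direction depends on the probe.

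For the inflammatory pairs, Ccl2 and Ccl7, which bind Ccr2, were 7.71-fold and 10.6-fold lower, and Ccl12 had a log2 difference of -0.96. Of the Cxcr3 ligands, Cxcl9 was 3.25-fold and Cxcl10 4.15-fold lower. Cxcl11, for which C57BL/6 mice are known to carry a null allele, read 88598 and 81709, a log2 difference of -0.055 that turned to 0.77 when scaled to the spike-ins, and its other probe gave 0.61 without that scaling. Ccl20, the Ccr6 ligand, was 3.19-fold lower and Cxcl16, the membrane-bound Cxcr6 ligand, 3.66-fold lower.

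Ccr8 was the receptor with a ligand that was higher as well. Ccl1, a chemokine of activated T cells and mast cells, read 13.1 in normal nodes and 72.3 in tumor-draining nodes, 5.74-fold higher, or 0.96 on the log2 scale with normexp, which is under 2-fold. Ccl8, another Ccr8 ligand, had a log2 difference of -0.62, which turned to 0.20 when scaled to the spike-ins.

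**Figure D3:**
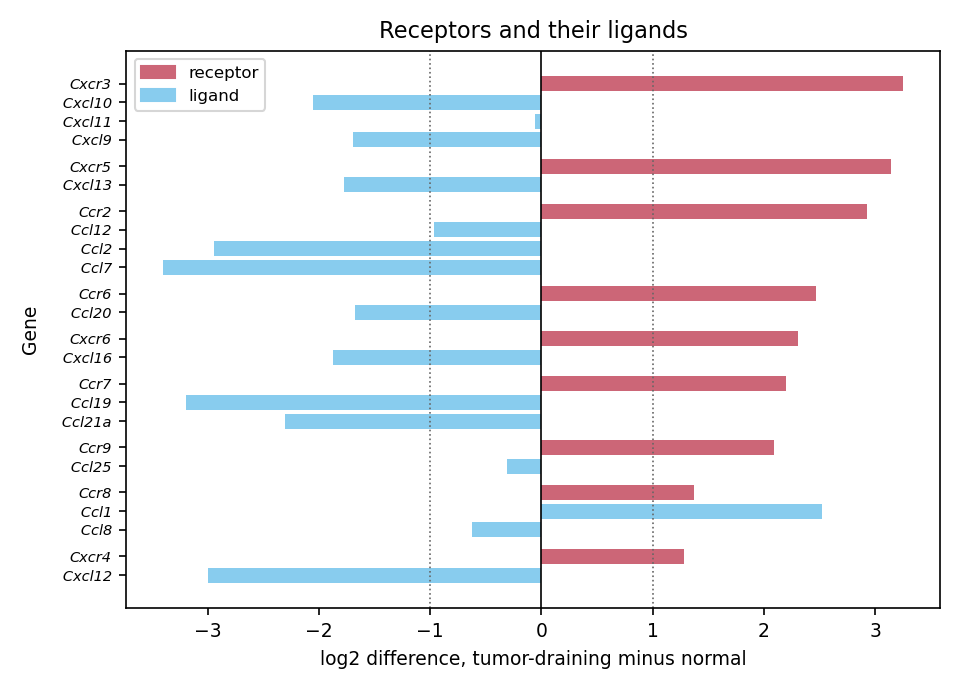
log2 difference, tumor-draining minus normal (x axis), of each receptor (dark bars) and, under it, of its ligands (light bars), from 1 array per group. Dotted lines mark 2-fold in each direction. The 9 receptor bars point right, and of the ligand bars Ccl1 alone points right in this scaling.

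The other chemokine receptors went both ways. Of 14 such genes, 11 were above background on at least 1 array, with a median log2 difference of 0.90. Of these, 5 passed 2-fold upward and 4 downward, beside 11.5% and 16.5% of all genes. Among the 5 were Ccr4 (6.71-fold, from 9.47 to 60.9), Cx3cr1 (2.65-fold), Ccr10 (2.36-fold) and Ccr3, which was above background on the tumor-draining array alone and at least 2.36-fold higher. All 5 were dim, and with normexp none of the 11 was at least 2-fold higher, beside 5.64% of all genes. Ccr4 is a receptor of regulatory and type 2 helper T cells and Cx3cr1 one of monocytes and cytotoxic cells.

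The 4 lower genes were the atypical receptors, which bind chemokines without G protein signaling and remove or store them. Ackr3, which takes up Cxcl12, was 7.52-fold lower, from 6341 to 808. Ackr1, found on venules, was 6.55-fold lower, Ackr4, which removes Ccr7 ligands, 4.95-fold lower, and Ackr2 of lymphatic endothelium 3.82-fold lower. Spike-in scaling left all 4 past 2-fold. Ccrl2 had a log2 difference of -0.51, or 0.31 when scaled to the spike-ins, and Cxcr2, a neutrophil receptor, one of 0.90. Ccr1, Cxcr1 and Xcr1, receptors of myeloid cells, neutrophils and cross-presenting dendritic cells, were not well above background on either array.

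Genes that carry the receptor signal inside the cell were mixed. Of 20, each measured above background in both groups, 9 passed 2-fold upward and 2 downward, beside 11.5% and 16.5% of all genes. Their median log2 difference was 0.83. Scaled to the spike-ins, 16 were higher and 1 lower, where 46.0% of all genes were higher and 8.83% lower. The higher ones included Rgs1, a lymphocyte brake on chemokine receptor signaling (7.85-fold, from 399 to 3002), Dock2, the exchange factor that drives lymphocyte migration (4.55-fold), Rac2, its small GTPase (3.37-fold), and Fermt3, the integrin activator kindlin-3 (3.44-fold). Rgs16, another brake, was 4.25-fold lower, and Arrb1, a beta-arrestin, 2.48-fold lower, while Arrb2 was 2.53-fold higher. The broadly expressed subunits Gnai2 and Gnai3 had log2 differences of 0.23 and -0.14, each of which changed sign under another scaling.

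Markers of lymphocytes were higher on the same array as the receptors. All 8 genes of the pan-leukocyte list passed 2-fold upward, beside 11.5% of all genes. They ran from 1.51 (Vav1) to 2.30 (Ptprc) on the log2 scale. Their summed signal was 30345 in normal and 109319 in tumor-draining nodes. The summed signal of the 9 receptors went from 15202 to 68026, of which Ccr7 made 78.4% and 77.0%, and without it from 3287 to 15617. On their brightest probes 5 receptors had a larger difference than Ptprc, Cxcr6 by 0.0068, and 3 (Cxcr3, Cxcr5 and Ccr2) lay above all 7 Ptprc probes, which ran from 1.04 to 2.67. With normexp 3 receptors (Cxcr5, Cxcr3 and Ccr6) exceeded the 2.25 of Ptprc, and Ccr2 lay below it. Without normexp the brighter Cxcr4 probe lay 1.02 and Ccr8 0.92 below Ptprc. The dimmer Cxcr4 probe gave 2.22, close to the 2.30 of Ptprc. With the mean over probes Cxcr4 was 1.75 and Ptprc 2.17. In that setting 7 receptors exceeded Ptprc, Ccr7 and Ccr9 among them. With quantile normalization, and in the log2 values deposited by the authors, 6 receptors did, Ccr9 among them. With loess and with the spike-in scaling 5 did. The part of a different leukocyte share in these receptor values was not tested.

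The markers of subsets that carry these receptors were measured as well. Their counts of higher genes stand beside the 11.5% of all genes that were at least 2-fold higher. T cell markers had 9 of 10 genes at least 2-fold higher, with a median of 2.31. They ran from Cd247 (0.81, with probes up to 2.01) to Cd8a (2.78), and their summed signal went from 16403 to 70248. B cell markers had 7 of 9, with a median of 1.80, from Cd79b (0.76) to Bank1 (2.94), and sums of 26852 and 63196. Of 5 follicular helper T cell genes 3 were higher, with a median of 2.68, from Il21 (0.093, which changes sign under another scaling) to Icos (3.28), and sums of 3409 and 9091. Of 5 regulatory T cell genes 4 were higher, with a median of 2.41, from Il2ra (0.57) to Ctla4 (4.13), and sums of 1046 and 3901. All 8 natural killer and cytotoxic genes were higher, with a median of 2.16, from Prf1 (1.22) to Gzmb (2.56), and sums of 3603 and 14640. Of 5 plasma cell genes 3 were higher, with a median of 1.23, from Sdc1 (-0.92) to Jchain (4.13), and sums of 5404 and 26434.

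The myeloid lists, of which the monocyte one marks cells that Ccr2 is known for, had medians near that of all genes. Of 8 monocyte and macrophage genes none was at least 2-fold higher and 1, Ly6c2 (-1.46), was at least 2-fold lower. The median was 0.31, up to 0.96 for Adgre1, and spike-in scaling made 4 of the 7 measured higher and none lower, where 46.0% of all genes were higher. In this list Fcgr1 was not well above background on either array, and the sums were 47426 and 27806. Ly6c2 read 29694 and 10366, close to the 29483 and 9513 of Ly6c1 in the blood endothelial list. Whether the probes tell these genes apart was not tested. Of 7 dendritic cell genes 2 were higher and 1 lower, with a median of 0.27 and sums of 40212 and 38674. They ran from Zbtb46 (-2.54, with another probe at -1.21) to Flt3 (1.96, with another probe at 0.38). Ccl22 was not well above background on either array. With normexp 1 was higher and 1 lower, beside 5.64% and 9.92% of all genes.

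The stromal cells named by the labels were represented on both arrays. Their counts of lower genes stand beside 16.5% of all genes. All 12 fibroblastic reticular cell markers were above background on both arrays, with 11 at least 2-fold lower and a median of -2.16. They ran from Ccl19 (-3.20) to Col3a1 (-0.85, with probes down to -2.42), with sums of 183922 and 66700. The blood endothelial list had 9 of 9 genes past 2-fold downward, with a median of -2.98, from Emcn (-3.54) to Pecam1 (-1.17), and sums of 46883 and 11647. The lymphatic endothelial list had 6 of 6, with a median of -2.18, from Flt4 (-2.87) to Reln (-1.22), and sums of 41517 and 8442. Scaled to the spike-ins, 8 of 12 fibroblastic, 7 of 9 blood endothelial and 5 of 6 lymphatic markers were at least 2-fold lower. In that scaling 8.83% of all genes were. The stromal lists overlap, since Ccl21a and Pdpn are in both the fibroblastic and the lymphatic list, and Ccl19 and Ccl21a are ligands as well. A summed signal adds different probes and can rest on 1 of them, as named here after the values were seen. Ccl21a made 78.2% of the lymphatic sum in normal nodes, and Siglech 97.6% of the dendritic cell sum, which without it was 974 and 1131. Ly6c2 made 62.6% of the monocyte and macrophage sum, which without it was 17731 and 17441. Bcl6 made 83.3% of the follicular helper sum, Gzma 65.7% of the natural killer sum, Ly6c1 62.9% of the blood endothelial sum and Cd79b 54.7% of the B cell sum.

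**Figure D4:**
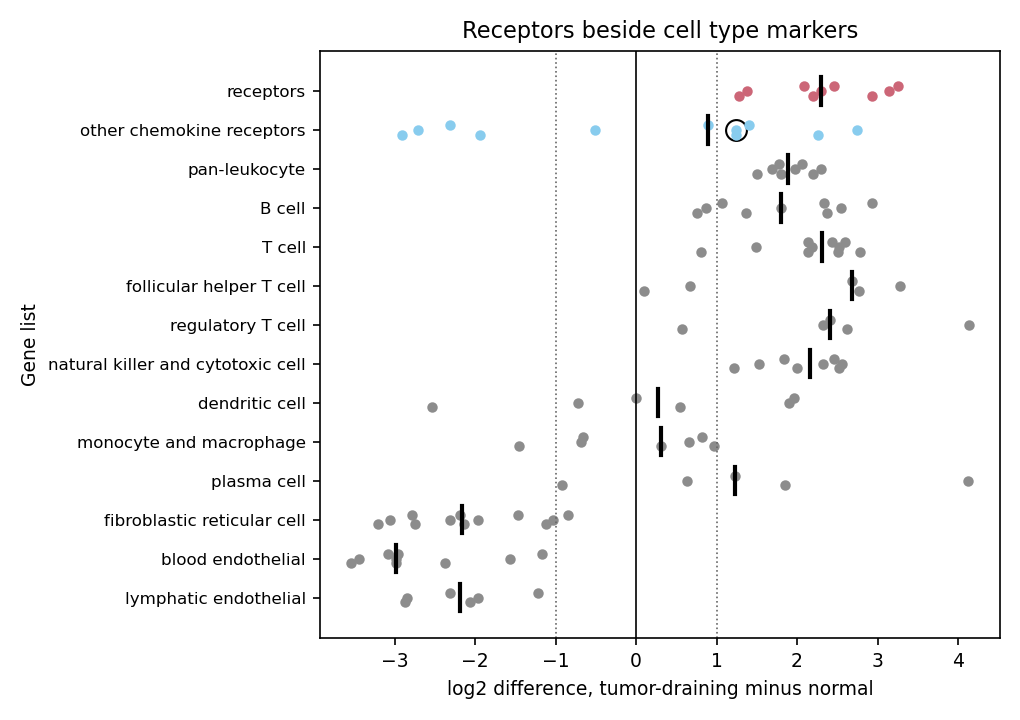
log2 difference, tumor-draining minus normal (x axis), of each gene (point) of the 9 receptors, the other chemokine receptors and the cell type marker lists (y axis), for genes above background on at least 1 array, with the list's median as a black bar and a ringed point for a bound (Ccr3). Dotted lines mark 2-fold. The receptor median of 2.30 lies near those of natural killer and cytotoxic cell (2.16), T cell (2.31) and regulatory T cell (2.41) markers. The pan-leukocyte median was 1.89 and the monocyte and macrophage median 0.31. With normexp, not drawn here, the receptor median was 1.91, beside 2.14 for T cell and 1.83 for pan-leukocyte markers.

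The letters around the starts of the receptors are given for 3 of them. Of the 9 genes, 7 have a window of 250 bases before to 50 bases after a start in the RefSeq promoter table (GRCm38.p6), with 8 windows in all, since Ccr6 has 2. Ccr7 and Cxcr5 have no entry. The windows were searched on both strands for 8 motifs of factors known from lymphocytes or from core promoters. The RUNX motif TGTGGT, bound by factors that guide T cell development, was found in 3 of the 8 windows, those of Cxcr3, Cxcr6 and Ccr6, and in 16.8% of all 32851 windows of that length. The windows that hold it are shown 5′ to 3′ on the gene's strand, with the motif or its reverse complement in capitals.
Cxcr3, chrX:101734098-101734397, minus strand: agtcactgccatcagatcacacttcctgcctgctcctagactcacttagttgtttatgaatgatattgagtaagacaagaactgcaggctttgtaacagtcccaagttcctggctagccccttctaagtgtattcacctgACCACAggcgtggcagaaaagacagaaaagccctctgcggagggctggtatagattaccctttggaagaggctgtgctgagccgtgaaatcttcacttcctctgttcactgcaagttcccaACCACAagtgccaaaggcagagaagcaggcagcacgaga
Cxcr6, chr9:123806227-123806526, plus strand: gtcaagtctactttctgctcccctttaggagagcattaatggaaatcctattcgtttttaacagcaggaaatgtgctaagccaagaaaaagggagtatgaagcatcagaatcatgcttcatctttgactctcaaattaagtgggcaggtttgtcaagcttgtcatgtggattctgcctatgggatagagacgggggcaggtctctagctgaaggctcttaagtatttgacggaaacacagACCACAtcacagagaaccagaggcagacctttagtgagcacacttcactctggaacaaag
Ccr6, chr17:8235793-8236092, plus strand: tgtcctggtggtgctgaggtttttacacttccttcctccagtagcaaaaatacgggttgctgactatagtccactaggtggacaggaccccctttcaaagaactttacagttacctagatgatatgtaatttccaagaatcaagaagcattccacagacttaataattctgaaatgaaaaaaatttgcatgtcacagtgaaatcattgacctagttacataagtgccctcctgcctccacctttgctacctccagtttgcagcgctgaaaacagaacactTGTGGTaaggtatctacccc
The Cxcr3 window holds 2 such matches, 110 bases before the start and 11 bases after it, and the Cxcr6 window has its match 10 bases before the start. The Ccr6 match lies 30 bases after the start. The ETS motif AGGAAG was in 4 windows (Ccr6, Ccr8, Ccr9 and Cxcr3) against 35.4% of all. The GATA motif AGATAA was in 3, those of Ccr2, Ccr8 and the other Ccr6 window, against 11.2%, and these are not shown. The E2A motif CAGGTG was in 2 (Ccr9 and Cxcr3) against 20.2%. The octamer ATGCAAAT was in 1 (Ccr6) against 1.74% and the TATA box TATAAA in 1 (Cxcr4) against 13.6%. The AP-1 motif TGANTCA (7.81% of all windows) and the T-box motif GGTGTGA (3.98%) were in none of the 8. These matches describe the letters alone, and no binding was measured.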

How the data were processed

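Total RNA of sorted cells was amplified and labeled with Cy3, per the labels' protocols, and groups were taken from the labels. The deposited values are intensities on a linear scale, with background subtracted by Agilent Feature Extraction 12.0.3.1, per the file headers, while the submitters' processing notes name version 10.7 and limma, with no role. The authors' deposited table holds log2 values, with processing steps not given in the sources used here. It followed the scanner values of each array (r = 0.99992 and 0.99987 over 56605 probes, column medians 4.85 and 4.86) and was used as an alternative.

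The log2 signal was reduced by the array's 75th percentile over 59305 non-control spots (374 and 358). Flagged spots were left out and a gene was represented by its brightest probe. A probe counted as above background if 50% or more of its spots had the scanner software's mark. Where 1 array alone was above background, the fold is a bound, taken against the dim value or the lowest signal above background there, whichever is larger. Of the probes, 32994 were named by RefSeq accession, 10224 by current symbol, 520 by synonym and 12867 as in the files. Normexp used an offset of 50 and loess a span of 0.3. The call steps were tested on simulated data. Members, lists, the naming rule and alternatives were chosen with earlier results of these data known. The rule names the receptors, the genes of the lists of other receptors, ligands and signaling, and the highest and lowest marker of each cell type list plus Ptprc. Some genes of these lists are counted but not reported here by name. Python 3.11.15, numpy 2.4.6, pandas 2.3.3, R 4.3.3 and limma 3.58.1 were used. The number of arrays limits the precision.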

Additional observations from a re-analysis of the deposited data

How the results depend on the processing

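Each receptor was recomputed under 11 alternatives, where it could be measured, which gave 95 values. Of these, 33 equalled the reported value, since the setting did not touch that receptor, and say nothing about stability. The other 62 kept their direction and 61 stayed at 2-fold or more, the exception being Ccr8 with normexp (0.59). The order of the receptors changed with normexp. With the mean over probes Ccr7 and Ccr9 came before Cxcr6, and Ccr8 came last. With loess, quantile normalization and the authors' deposited table Ccr9 came before Ccr7. Across alternatives other than the spike-in scaling, the log2 difference of Cxcr3 ran from 2.46 to 3.28 and that of Cxcr4 from 1.08 to 1.75. The setting of brighter genes kept 5 receptors (Ccr6, Ccr7, Cxcr4, Cxcr5 and Cxcr6). It leaves genes out and does not change a value, so these 5 are among the 33 equal values and could not turn out otherwise. Counts over all genes moved more. With normexp 1392 genes were at least 2-fold higher and 2447 lower, and with spike-in scaling 11341 and 2180. Among brighter genes, of which 11090 were tested, 1098 were higher and 1603 lower. The spike-in scaling raised every difference by the same size, as given above. For normexp the part of the offset in the change was not tested. Leaving out a replicate was not possible with 1 array per group. No paired analysis was possible because each group has 1 array. Signal over background limits Ccr2, Ccr8 and the second Ccr9 probe, which read 3.83, 3.33 and 1.35 times the lowest signal above background on the normal array.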

Other observations

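Another 10 genes of lymphocyte trafficking, a list outside the rule for named genes, were above background on both arrays. Of these 8 were at least 2-fold higher on the tumor-draining array, beside 11.5% of all genes, or all 10 in the spike-in scaling, beside 46.0%. They had a median log2 difference of 1.94. The genes given here were chosen after their values were seen. The ends of the list were Gpr183, an oxysterol receptor that positions B cells (11.9-fold, from 89.0 to 1013), and S1pr1, the receptor for egress from lymph nodes (0.76 on the log2 scale). Itgal, a chain of the integrin LFA-1, was 5.76-fold higher, with probes from 1.74 to 2.53. As described above, leukocyte markers moved with them, and their part in these values was not tested.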
